A study of Homo sapiens with 6 samples.

Results

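The genes described here are regulators and direct transcriptional targets of the tumor suppressor p53, measured by RNA-Seq in A549 cells after knock-down of the histone methyltransferase subunit KMT9α. They were chosen by gene symbol from a list of 31 names. Of these, 30 were listed under that symbol in the deposited table, and TNFRSF10B-AS1 was found through its RefSeq accession NR_038873, which the table lists as LOC286059. They are 31 of 23180 gene symbols. The mRNA of p53 itself is not on the list. A549 is an established human lung adenocarcinoma line, known to carry p53 without mutation. In the series, 3 samples of A549 cells received siControl, a control siRNA, and 3 received siKMT9α#1, an siRNA against the KMT9α mRNA, which the table lists as N6AMT1. All 6 samples carry the genotype label WT and passage 11, and RNA was taken 3 days after transfection. The labels name the target of the siRNA, and its number comes from the study's text. The knock-down rests on 1 siRNA, so an effect of KMT9α and any other effect of that siRNA cannot be told apart.

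p53 is a transcription factor that accumulates when DNA is damaged or growth signals go wrong. It binds a response element near its target genes and raises their transcription. MDM2, itself such a target, marks p53 for degradation and so closes a feedback loop. MDM4 blocks the activation domain of p53, and PPM1D is a phosphatase that removes activating phosphates. The other targets act in cell cycle arrest, cell death, DNA repair and metabolism, and they are described in that order.

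The response element consists of a pair of decamers, each with 3 purines, a core of C, A or T, A or T and G, and 3 pyrimidines. It was searched for within 2500 bases on either side of the deposited 5′ end, in GRCh37, which has the coordinates of hg19. The decamers had to be adjacent, both 4-base cores had to match, and up to 2 mismatches were allowed elsewhere. Of the 30 members that passed the filter on low counts, 10 held such a match, and of all 13580 genes searched, 2.27% did. Without a mismatch, PLK2 and ZMAT3 held one, against 0.0663% of all genes. Since the members were chosen as p53 targets, these shares are descriptions and were not tested. A match is no evidence of binding in these cells, and no match says only that these letters are not in this window. The matches below are shown because they sit beside genes that rose and genes that fell. Each is printed on the strand of its gene with 20 bases on either side, capitals mark the 2 cores, and its centre is given in bases from the 5′ end, with upstream negative.
PLK2, centre at -2144 from the 5′ end, outside the gene, 0 mismatches, chr5:57758081-57758140, minus strand: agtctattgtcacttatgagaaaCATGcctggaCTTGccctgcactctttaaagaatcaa
ZMAT3, centre at 1671, intron, 0 mismatches, chr3:178787956-178788015, minus strand: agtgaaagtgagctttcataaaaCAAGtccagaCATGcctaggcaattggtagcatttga
CCNG1, centre at 364, intron, 1 mismatch, chr5:162864912-162864971, plus strand: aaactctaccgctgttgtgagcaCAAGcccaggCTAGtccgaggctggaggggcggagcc
SPATA18, centre at 539, intron, 2 mismatches, chr4:52918103-52918162, plus strand: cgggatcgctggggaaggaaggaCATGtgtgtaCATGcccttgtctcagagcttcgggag
GADD45A, centre at 1607, intron, 1 mismatch, chr1:68152438-68152497, plus strand: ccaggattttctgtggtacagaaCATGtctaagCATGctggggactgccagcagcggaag
PMAIP1, centre at -402, outside the gene, 2 mismatches, chr18:57566761-57566820, plus strand: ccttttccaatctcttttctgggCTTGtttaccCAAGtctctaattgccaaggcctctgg
The other matches were beside AEN, BTG2, GDF15 and RRM2B. Of the 10 genes with a match, 7 rose after knock-down (PLK2, ZMAT3, CCNG1, SPATA18, AEN, BTG2 and RRM2B) and 3 fell (GADD45A, PMAIP1 and GDF15), with the values given below. Of all 30 members tested, 18 rose and 9 fell, and of all genes tested 37.1% rose and 38.5% fell.

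Each gene was counted on its transcript with the largest summed count, and the totals over these transcripts ran from 13740097 to 19832395.5 counts per sample. KMT9α mRNA was at 10.2 to 11.4 TMM-scaled CPM (counts per 1000000) with siControl and at 2.87 to 3.35 CPM with siKMT9α#1, in the direction of the labels. The keratins KRT8, KRT18 and KRT7, which mark epithelial cells, were abundant, while EPCAM and CDH1 stayed below 9 CPM on average in both groups. The 5 epithelial markers summed to 4350 to 4830 CPM with siControl and to 2910 to 3090 CPM with siKMT9α#1. Of these, KRT8, KRT18 and EPCAM fell, CDH1 rose and KRT7 had a log2 fold change of 0.01. The 4 genes known to be high in A549 cells summed to 3510 to 3750 CPM with siControl and to 3750 to 3950 CPM with siKMT9α#1. Within this sum genes moved both ways, with log2 fold changes from -2.30 to 1.75, so the sum does not show that each was stable. The part of either marker list in the members' values was not tested. CDKN2A, which A549 cells are known to lack, had 0 counts in all samples. Markers of leukocytes, endothelium and fibroblasts summed to at most 4.94 CPM for any list and sample. In bulk RNA, fewer cells that express a gene and less RNA per cell cannot be told apart.

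KMT9α knock-down moved the p53 genes in both directions. After knock-down 18 of the 30 genes tested rose, 9 fell and 3 did not pass the test, with edgeR's quasi-likelihood test and a Benjamini-Hochberg adjusted p under 0.05 as threshold. That is 27 of 30 (90%), in a comparison in which 75.6% of all 13877 genes tested were called. By direction, 18 of 30 were higher against 37.1% of all genes, and 9 of 30 were lower against 38.5%. The median log2 fold change was 0.38 over the 30 genes and -0.01 over all genes. PLK2, ZMAT3 and CYFIP2 more than doubled, and PMAIP1 and TP53I11 fell by more than 3.9-fold, which makes 5 of 30 changed by more than 2-fold against 20.4% of all genes. In the 27 genes called, siControl and siKMT9α#1 samples did not overlap, as in 77.0% of all genes, while in BAX, PLK3 and DDB2 they overlapped. For a single gene, an exact permutation test of 3 samples against 3 cannot give a p below 0.1. At the study's threshold (P below 1e-08, log2 fold change beyond 0.26 either way), 7 genes were higher and 6 lower, together 43.3%. Of all 13877 genes tested, 1878 were higher and 1479 lower, together 24.2%. The threshold was applied to the fit made here, so these are not the study's own counts. The number higher at this threshold moved with the setting, from 3 with a block for the replicate number to 14 with DESeq2 and 15 without the filter on low counts, and it was 11 without siControl replicate 1 and 3 without siKMT9α#1 replicate 2.

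**Figure D1:**
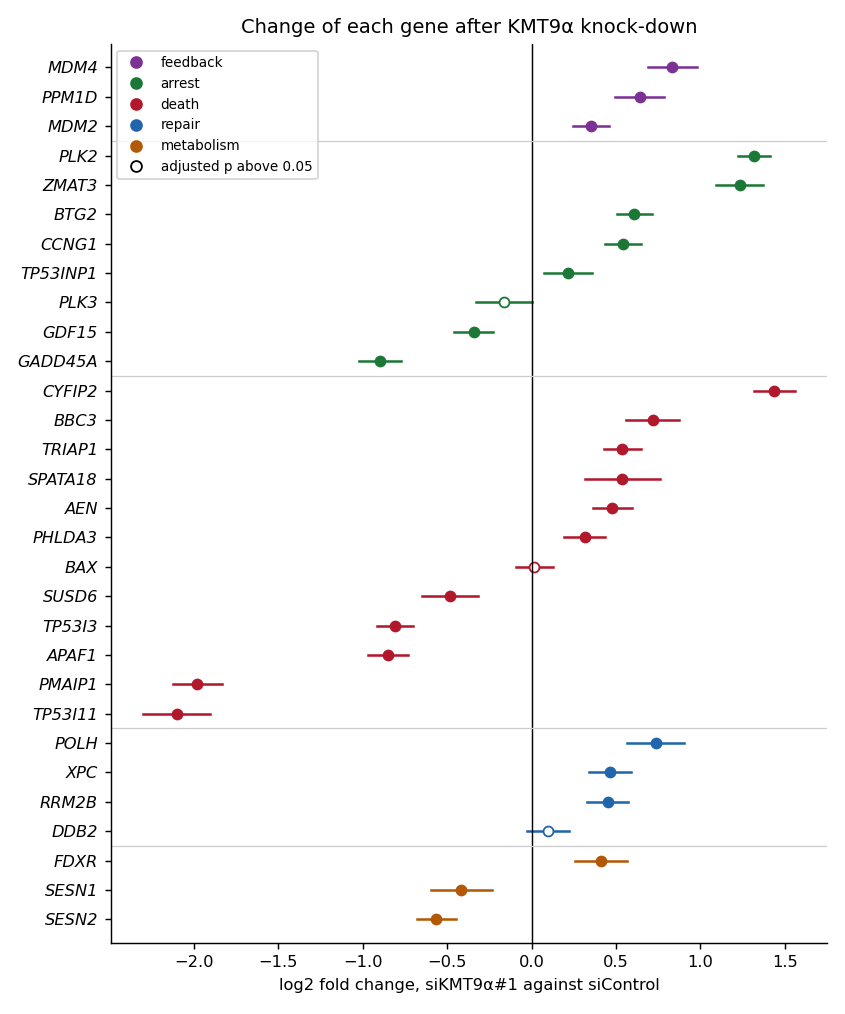
Log2 fold change of each gene (horizontal axis, siKMT9α#1 against siControl, 3 samples each), with 95% intervals from edgeR's quasi-likelihood fit and colors for the role. Filled points passed an adjusted p of 0.05, and the points run from -2.10 for TP53I11 to 1.44 for CYFIP2.

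The 3 regulators that restrain p53 all rose, while 37.1% of all genes tested rose. MDM4 stood at 28.2 to 29.9 CPM in the siControl samples and, after knock-down, at 46.3, 52.0 and 55.7 CPM. The log2 fold change of MDM4 was 0.83, with a standard error (SE) of 0.07 and an adjusted p of 1.78e-09 by edgeR's test. The phosphatase PPM1D rose from 24.2 ± 0.70 to 37.7 ± 2.88 CPM (SD, n = 3), and the log2 fold change was 0.64 (SE 0.07). All 3 samples of each gene after knock-down lay above all siControl samples, and in 77.0% of all genes tested the groups did not overlap. MDM2, the ubiquitin ligase of p53, was listed as NM_002392 on chromosome 12 of hg19 from 69201971 to 69239212. It was at 202.3, 185.2 and 200.1 CPM with siControl and at 242.1, 245.4 and 263.5 CPM with siKMT9α#1. The difference was 1.28-fold (log2 0.35, SE 0.05, adjusted p = 3.76e-06). This call ended when per-sample offsets for GC content and transcript length were added, which left MDM2 at 0.06, and the same offsets brought MDM4 to 0.43. Per kilobase of transcript, the siControl level was 26.7 CPM for MDM2, 5.08 for PPM1D and 2.87 for MDM4.

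**Figure D2:**
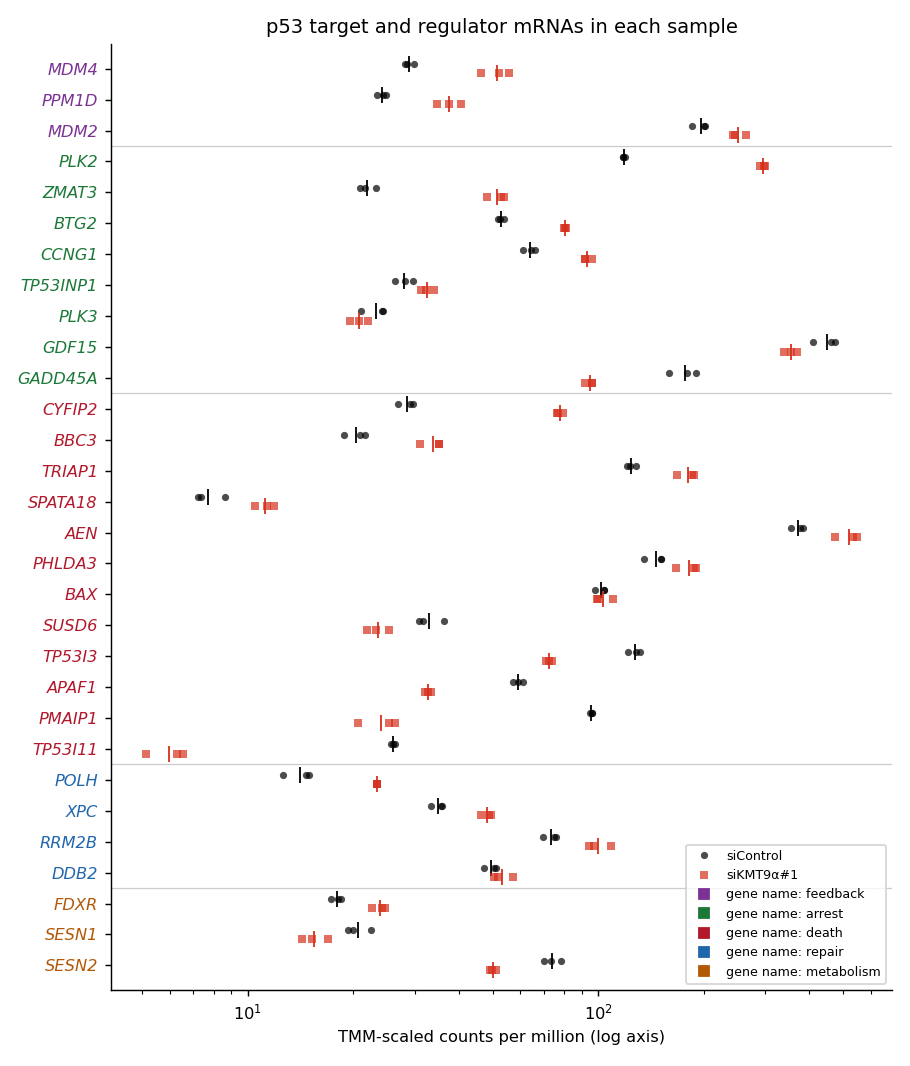
TMM-scaled CPM (log axis) of each of the 30 genes in every sample, with circles for the 3 siControl and squares for the 3 siKMT9α#1 samples, a vertical tick at each mean, and gene names colored by role. PMAIP1 and TP53I11 show wide gaps between groups to the left, PLK2, ZMAT3 and CYFIP2 to the right, and BAX shows mixed points.

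Among the 8 genes that act in growth arrest, 5 rose, 2 fell and PLK3 did not pass the test. That is 62.5% higher and 25% lower, against 37.1% and 38.5% of all genes tested. PLK2, a polo-like kinase induced by stress, was at 118.1, 118.1 and 119.2 CPM in the siControl samples. After knock-down it was at 289.6, 297.1 and 298.3 CPM. The difference was 2.49-fold (log2 1.32, SE 0.05, adjusted p = 4.07e-15). PLK2 was listed as NM_006622 (chromosome 5, start 57749810, end 57755966), and the exact sequence match shown above lies upstream of it. Its relative PLK3 was at 21.1, 24.3 and 24.1 CPM with siControl and at 22.1, 20.8 and 19.6 CPM with siKMT9α#1, so that the groups overlapped. The log2 fold change of PLK3 was -0.16 with a 95% interval from -0.33 to 0.00. PLK3 passed the test at -0.27 with the library size alone as scaling, at -0.21 without siControl replicate 1 and at -0.20 without siKMT9α#1 replicate 1.

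ZMAT3, an RNA-binding zinc finger protein that changes splicing downstream of p53, was at 21.0 to 23.2 CPM with siControl and at 48.1 to 53.8 CPM after knock-down. Its log2 fold change was 1.23 (SE 0.07, adjusted p = 3.01e-12), and both of its listed transcripts gave 1.23. Listed transcripts of a gene can count the same reads, so their agreement, here and below, is no independent support. The 2 groups were far apart, and ZMAT3 is the other gene with an exact sequence match to the response element. BTG2, which slows the cell cycle and binds an mRNA deadenylase, rose 1.53-fold, from 52.7 ± 1.06 to 80.4 ± 0.42 CPM (SD, n = 3 each). CCNG1 encodes cyclin G1, which guides a phosphatase to MDM2, and it rose 1.46-fold, from 63.9 ± 2.43 to 93.1 ± 2.51 CPM (SD, n = 3 each). TP53INP1, a nuclear and autophagy cofactor of p53, rose by only 0.22 on the log2 scale, and it did not pass the test with the library size alone (0.11) or with the GC and length offsets (0.01).

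GADD45A, a stress protein that inhibits the mitotic kinase CDK1, went the other way. It was at 159.5, 190.2 and 179.7 CPM with siControl and at 96.1, 96.3 and 91.5 CPM with siKMT9α#1. Its log2 fold change was -0.90 (SE 0.06, adjusted p = 5.36e-11), and its 3 listed transcripts gave -0.88 to -0.90. A sequence match with 1 mismatch lies in its intron, as in that of CCNG1, which rose. GDF15, a secreted cytokine of the TGF-β family, was the member with the highest siControl level per kilobase of transcript, 375.2 CPM. It was at 410.1, 462.4 and 474.8 CPM with siControl and at 368.7, 354.4 and 339.8 CPM after knock-down. The log2 fold change was -0.34 (SE 0.06, adjusted p = 1.67e-05), and with the GC and length offsets it was -0.07 and no longer passed the test.

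The death genes, the largest role with 12 tested, had the widest range of log2 fold changes. Of them 6 were higher, 5 were lower and BAX was not called. That is 50% higher and 41.7% lower, against 37.1% and 38.5% of all genes tested. PMAIP1 encodes NOXA, a BH3-only protein that binds the survival factor MCL1, and it was listed as NM_021127 on chromosome 18 of hg19 from 57567192 to 57571538. It was at 94.5, 96.3 and 96.2 CPM in the siControl samples and at 20.7, 25.3 and 26.3 CPM in the siKMT9α#1 samples. PMAIP1 was thus 3.95-fold lower (log2 -1.98, SE 0.07, adjusted p = 3.87e-15), and 2.26% of all genes tested had a lower log2 fold change. BBC3 encodes PUMA, a BH3-only protein that antagonizes all survival members of the BCL2 family. BBC3 was at 18.8, 20.9 and 21.6 CPM with siControl and at 35.1, 35.1 and 30.97 CPM with siKMT9α#1. It was thus 1.64-fold higher (log2 0.72, SE 0.08, adjusted p = 5.98e-08), and its 4 listed transcripts gave 0.71 to 0.74. These BH3-only targets of p53 moved in opposite directions, and neither changed sign under any alternative tried.

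BAX, the pore-forming protein that BH3-only proteins activate, did not pass the test on its transcript with the largest count. It was at 98.2, 104.0 and 104.2 CPM with siControl and at 110.5, 99.5 and 100.2 CPM with siKMT9α#1. The log2 fold change was 0.02 with a 95% interval from -0.09 to 0.13, so that a change of over 1.5-fold lies outside the interval of this fit. With the library size alone the sign turned (-0.09), as it did without siKMT9α#1 replicate 1 (-0.03), and with the GC and length offsets BAX passed the test at 0.25. The 4 other listed transcripts of BAX gave 0.12 to 0.15, and all 4 passed the test when every transcript was fitted.

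APAF1, the scaffold of the apoptosome, was at 60.9, 58.9 and 57.0 CPM with siControl and at 32.7, 33.4 and 32.1 CPM with siKMT9α#1. The log2 fold change was -0.85 (SE 0.06, adjusted p = 7.72e-11), and its 5 listed transcripts gave -0.84 to -0.85. The span of APAF1 overlaps that of ANKS1B, which was also lower (-0.65). TP53I3, a quinone oxidoreductase also called PIG3, fell from 127.0 ± 5.14 to 72.5 ± 1.44 CPM (SD, n = 3), and the log2 fold change was -0.81. TP53I11, a p53-induced membrane protein also called PIG11, was at 25.6 to 26.4 CPM with siControl and at 5.14 to 6.54 CPM after knock-down. It was the member with the lowest log2 fold change, -2.10 (SE 0.09, adjusted p = 1.74e-13), and both of its transcripts gave -2.10. The span of TP53I11 overlaps that of TSPAN18. SUSD6, a membrane protein of the sushi domain family, fell by 0.48 on the log2 scale.

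CYFIP2, a subunit of the actin-regulating WAVE complex, rose the most of all members. It was at 29.1, 26.9 and 29.6 CPM with siControl and at 79.5, 76.9 and 76.5 CPM after knock-down. The difference was 2.71-fold (log2 1.44, SE 0.06, adjusted p = 3.16e-14), and its 3 transcripts gave the same log2 fold change to 2 decimals. Smaller rises were found for AEN, a nuclease of apoptotic cells (0.48), TRIAP1, a mitochondrial lipid carrier that restrains apoptosis (0.54), and SPATA18, which acts in mitochondrial quality control (0.54). PHLDA3, which competes with AKT for membrane lipids, was at 135.3 to 151.5 CPM with siControl and at 166.5 to 190.2 CPM after knock-down. Its log2 fold change of 0.31 moved to 0.21 with the library size alone and to 0.53 with the GC and length offsets, and PHLDA3 passed the test in each.

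TNFRSF10B-AS1, the antisense RNA of the death receptor gene TNFRSF10B, did not pass the filter on low counts. The siControl samples held 11, 4 and 11.5 counts of it and the siKMT9α#1 samples 3, 8.5 and 7, so no difference was detectable at this depth. TNFRSF10B itself was at 475.1 to 537.1 CPM with siControl and at 1130 to 1204 CPM with siKMT9α#1. Its span overlaps that of the antisense RNA. Whether the counting used the strand is not given in the sources used here, so reads of the pair cannot be told apart.

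Of the 4 repair genes, 3 rose and DDB2 did not pass the test, while 37.1% of all genes tested rose. XPC and DDB2 recognize damaged DNA for nucleotide excision repair, POLH is the polymerase that copies past ultraviolet damage, and RRM2B is the p53-induced subunit of ribonucleotide reductase. XPC was at 35.6, 35.8 and 33.4 CPM with siControl and at 46.3, 48.7 and 49.5 CPM with siKMT9α#1 (log2 fold change 0.47, SE 0.06, adjusted p = 7.67e-07). RRM2B was at 69.5 to 76.0 CPM with siControl and at 94.3 to 108.6 CPM after knock-down, a log2 fold change of 0.45 (SE 0.06). In both genes the groups did not overlap, as in 77.0% of all genes tested. All 3 transcripts of each gave nearly the same value, but they can count the same reads. DDB2 was at 47.3, 51.1 and 50.3 CPM with siControl and at 50.3, 57.0 and 51.8 CPM with siKMT9α#1. The log2 fold change of DDB2 was 0.10 with a 95% interval from -0.03 to 0.22, it was -0.01 with the library size alone, and with the GC and length offsets it passed the test at 0.20. POLH rose from 14.1 ± 1.26 to 23.4 ± 0.03 CPM (SD, n = 3), and the log2 fold change was 0.74, or 0.33 with the offsets. The span of POLH ends inside that of GTPBP2, which fell by 1.26.

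The metabolic genes moved apart, with 1 of 3 higher and 2 lower, while 37.1% of all genes tested were higher and 38.5% lower. SESN1 and SESN2 encode sestrins, stress proteins that restrain the growth kinase complex mTORC1, and both fell. SESN2 was at 70.3, 73.4 and 78.2 CPM with siControl and at 51.1, 49.3 and 49.8 CPM with siKMT9α#1, a log2 fold change of -0.56 (SE 0.06, adjusted p = 2.12e-08). SESN1 was at 22.5, 19.4 and 20.02 CPM with siControl and at 16.9, 14.3 and 15.3 CPM after knock-down, a log2 fold change of -0.42 (SE 0.09, adjusted p = 0.000247). Neither sestrin overlapped between groups, as was the case in 77.0% of all genes tested. FDXR, the mitochondrial reductase that feeds electrons to steroid and iron-sulfur enzymes, rose from 18.0 ± 0.61 to 23.9 ± 1.09 CPM (SD, n = 3), and the log2 fold change was 0.41 (SE 0.07).

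**Figure D3:**
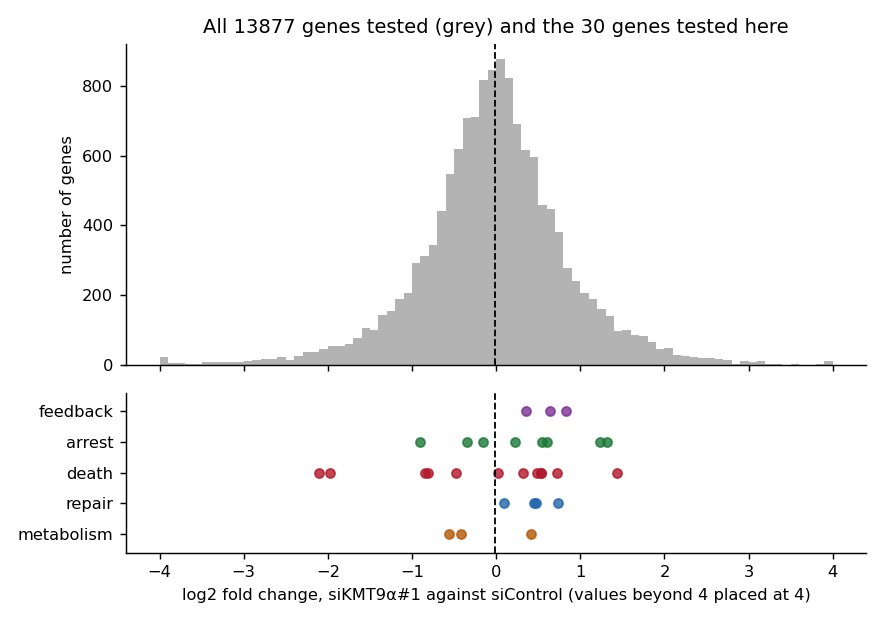
Upper panel, number of genes (vertical axis) by log2 fold change for all 13877 genes tested, with values beyond 4 placed at 4. Lower panel, the 30 p53 genes on the same axis by role, with the dashed line at the median of all genes (-0.01), which shows 3 of 3 feedback genes to the right and the death genes on both sides.

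The scaling and the GC and length offsets moved large and small changes, and calls were lost or gained in 6 genes, MDM2, TP53INP1, GDF15, PLK3, BAX and DDB2. With the offsets, which change GC content and length together, CYFIP2 went from 1.44 to 1.12, ZMAT3 from 1.23 to 0.90 and APAF1 from -0.85 to -1.17. Scaling by the library size alone moved the median over all genes from -0.01 to -0.12 on the log2 scale and that of the 30 genes from 0.38 to 0.28. Under this scaling TP53INP1 lost its call and PLK3 gained one. With the GC and length offsets, MDM2, TP53INP1 and GDF15 lost their calls, BAX and DDB2 gained one, and the median of the 30 genes was 0.34. The other 24 genes, with CYFIP2, PLK2, ZMAT3, PMAIP1, TP53I11, APAF1, TP53I3 and GADD45A among them, kept their direction and their call under each of the 16 alternatives.

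**Figure D4:**
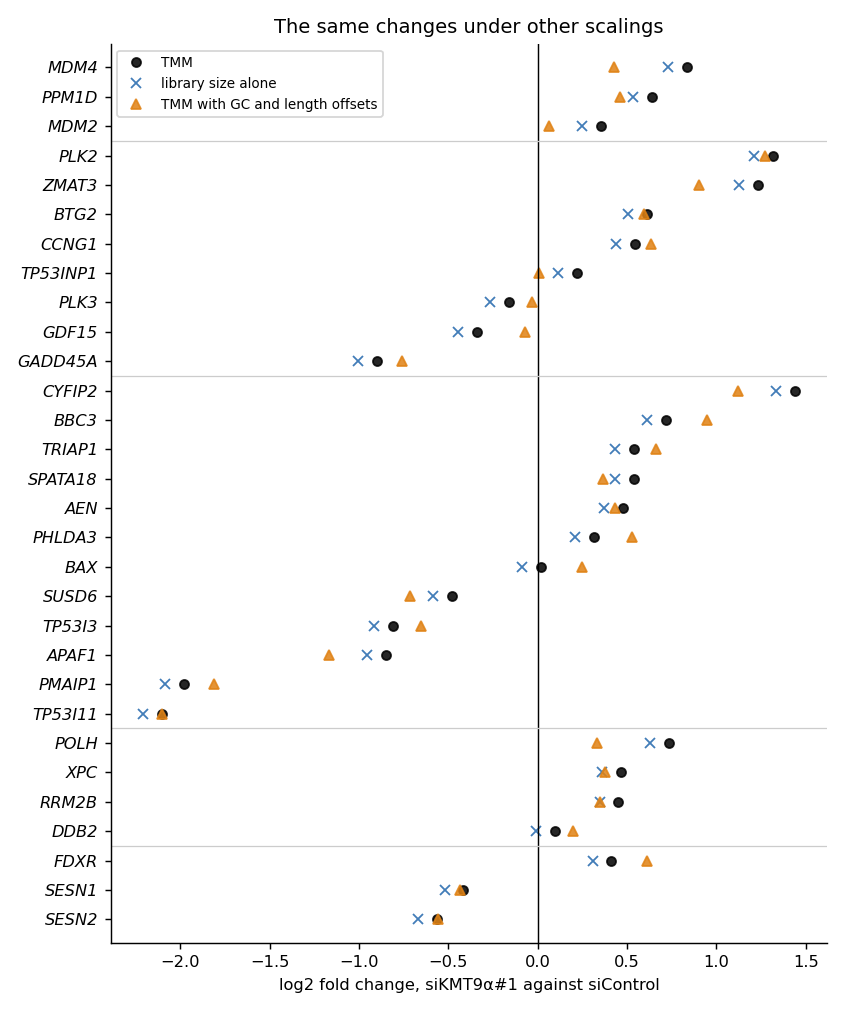
Log2 fold change of each gene (horizontal axis) with TMM, with the library size alone, and with the GC and length offsets on top of TMM. The 3 marks of PMAIP1 lie between -2.09 and -1.81, while those of MDM2 run from 0.06 to 0.35 and those of BAX from -0.09 to 0.25.

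Other genes around p53 also moved both ways. The lists in this and the next paragraph were written from general knowledge, with earlier results of these data known, so they are no independent evidence. Of 46 further targets, 45 were tested, and 29 rose, 8 fell and 8 did not pass the test, with a median log2 fold change of 0.28. E2F7, a repressor of cell cycle genes, rose from 3.32 ± 0.38 to 13.7 ± 0.46 CPM (log2 fold change 2.04), and TNFRSF10D, a decoy death receptor, rose from 69.5 ± 4.01 to 178.8 ± 12.9 CPM (1.37), with SD and n = 3 each. ANKRA2, an ankyrin repeat protein, fell from 19.6 ± 0.48 to 10.1 ± 1.06 CPM (-0.95). TNFRSF10B had a log2 fold change of 1.22. Of 33 genes that modify or bind p53, 31 were tested, and 19 rose, 7 fell and 5 did not pass the test, with a median of 0.32. HIPK2, a kinase that phosphorylates p53 for apoptosis, rose from 49.9 ± 2.24 to 188.0 ± 1.64 CPM (1.91), and TP53BP2, which encodes the p53 cofactor ASPP2, rose from 61.3 ± 1.27 to 186.4 ± 8.58 CPM (1.60). The ubiquitin ligase gene RCHY1 fell by 1.36 and the checkpoint kinase gene CHEK2 by 1.34. In all genes tested, 37.1% rose and 38.5% fell, and no test of these lists against other genes was made.

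The partners of BAX, NOXA, PUMA and APAF1 were counted as well. Of 19 genes of the BCL2 family and the apoptosome, 7 rose, 9 fell and 3 did not pass the test, with a median log2 fold change of -0.05. That is 36.8% higher and 47.4% lower, against 37.1% and 38.5% of all genes tested. The highest values of the list were those of the survival genes BCL2A1, at 1.14, and BCL2L1, which encodes BCL-XL, at 1.08. Not all survival genes of the list rose, and its genes that promote death moved both ways. BCL2L1 was at 223.7 to 236.4 CPM in the siControl samples and at 452.9 to 501.1 CPM in the siKMT9α#1 samples.

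**Figure D5:**
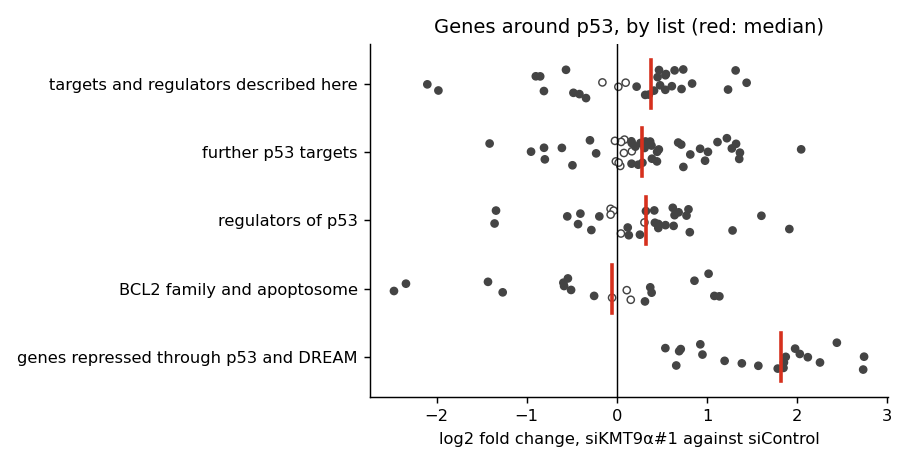
Log2 fold change (horizontal axis) of the 30 genes described here and of 4 further lists around p53, 1 point per gene, with open points for an adjusted p above 0.05 and a red line at each median. The medians are 0.38, 0.28, 0.32, -0.05 and 1.82 from top to bottom.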

How the data were processed

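RNA-Seq was analysed for 6 samples of A549 cells, 3 per group. Reads were aligned to hg19 with STAR and counted by HOMER on transcripts of RefSeq by the authors, and the deposited values are estimated counts per transcript, not normalized, of which 36.4% were not whole. Counting options and library type are not given in the sources used here. The authors also deposited a fold change (ratio), the p-value, raw and adjusted, of their own comparison, which were not used. Of 38767 rows, 1182 had no symbol and counts. Of the members, 16 have more than 1 transcript, and for every gene the transcript with most counts in all 6 samples together was used. Transcripts of the same gene can count the same reads, so their values are not independent.

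Rounded counts entered edgeR 4.0.16 under R 4.3.3 (TMM, filterByExpr, quasi-likelihood test, two-sided, Benjamini-Hochberg adjustment over 13877 genes). The biological coefficient of variation was 4.47%. The standard error is the log2 fold change divided by the square root of F. CPM were scaled by TMM factors. In simulated data for this comparison, 192 of 200 genes changed by 1 on the log2 scale were called, with 0 in the wrong direction, and 11 unchanged genes were called among 13869. The simulation gave all genes a common dispersion and held no GC or length shift. In the data 75.6% of genes were called, so it does not test the scaling under such a broad change. Replicates of a group differed by more than sampling noise (chi-square per gene 1.34 to 5.15, between groups 104 to 141). GC content came from GENCODE transcripts and covered 98.8% of tested genes. The offsets were spline fits (5 degrees of freedom) of each sample's deviation from the gene mean. The coordinates are those of hg19.

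The alternatives were the likelihood-ratio test, DESeq2 1.42.0, other scalings and filters, a fit of every transcript, a block for the replicate number, GC and length offsets, and each sample left out. The members and lists were chosen with earlier results of these data known, and the lists were written from general knowledge. All members were accounted for. Of each further list, the 2 genes called with the highest and the 2 with the lowest log2 fold change were named, with TNFRSF10B, N6AMT1 and the marker genes. Some genes that this rule selects are not reported here. GTPBP2, ANKS1B and TSPAN18 were named afterwards because their spans overlap members. The siRNA sequences and their seed sites were not analysed here.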

Additional observations from a re-analysis of the deposited data

How the results depend on the processing

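Over 16 alternatives, the 30 members tested had 480 values, of which 463 kept their direction and their side of the threshold, 7 lost and 7 gained the call, and 3 turned sign. The 3 were BAX at -0.090 and DDB2 at -0.0083 with the library size alone, and BAX at -0.029 without siKMT9α#1 replicate 1, and none of the 3 values passed the test. With each sample left out in turn, BAX ran from -0.029 to 0.045. The calls lost and gained are given beside MDM2, GDF15, TP53INP1, PLK3, BAX and DDB2 above. The cause was not tested. The number of members higher at the study's threshold, 7, was 14 with edgeR's likelihood-ratio test, 14 with DESeq2, 15 without the filter on low counts and 3 under a replicate block, and it ran from 3 to 11 with each sample left out. The block changed no other count by over 1.5 times and no member's call. The labels do not say whether samples with the same replicate number were handled together. The correlations of their deviations within groups were -0.08, 0.02 and -0.08, which with 3 samples per group cannot decide it. Depth limits TNFRSF10B-AS1, which had 45 counts in all samples together.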

Other observations

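Besides the genes that p53 activates, a set of cell cycle genes falls when p53 is active, through the DREAM repressor complex. A list of 20 such genes was written from general knowledge, with earlier results on cell cycle genes of these data known, so that it is no independent evidence of their direction. All 20 were tested and all 20 rose after knock-down, against 37.1% of all genes, with a median log2 fold change of 1.82 and a range from 0.54 for CKS1B to 2.74 for TOP2A. TOP2A, the topoisomerase of dividing cells, was at 21.3 to 25.9 CPM with siControl and at 152.1 to 155.4 CPM with siKMT9α#1. PLK1, the main mitotic polo-like kinase, rose from 2.83 ± 0.25 to 18.8 ± 0.89 CPM (SD, n = 3), and its log2 fold change was 2.73 with an SE of 0.11 (adjusted p = 4.99e-14 by edgeR). So in the samples in which 18 of the 30 p53 genes tested were higher, the genes of this list were higher as well. The part of the cell cycle genes in the members' values was not tested.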
